A study of Saccharomyces cerevisiae with 4 samples.

Results

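The oligos described here are the long tail of the Spo11 oligos of meiotic yeast: uniquely mapped reads whose listed interval, counting both end positions, spans 41 to 76 nt. There were 141782 of them among 2024944 reads, or 7.0% (95% Wilson interval 6.97 to 7.04%), and they are set against the 1212681 reads of 25 to 32 nt. The series holds 4 datasets from budding yeast of the SK1 background: 3 technical datasets from culture 1 (1A, 1B as a second PCR, 1C as a second ligation) and 1 from an independent culture 2. Both cultures are the same homozygous diploid, with Spo11 carrying the HA3-His6 tag and the gene for the mitochondrial nuclease Nuc1 replaced (nuc1Δ::LEU2). They share the marker alleles arg4-Nsp, his4X::LEU2, leu2::hisG, ura3, ho::LYS2 and lys2, so every value below carries this background. Cells grew for 14 h at 30 °C before 4 h in sporulation medium, and there was no untreated or mutant group. The read list pools the datasets, so culture 2 was not compared with culture 1 and no statistical test was possible. Read names show 4 sequencing runs that no label ties to a dataset, and their values are given singly. Intervals cover counting error only.

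Spo11 is a topoisomerase-like protein that cuts both strands of meiotic chromosomes with a short stagger and stays bound to the 5′ ends. Endonucleases then nick the bound strand and release Spo11 with an oligo, so the 5′ end of an ordinary oligo marks a Spo11 cut and its 3′ end marks the nick. Work on yeast and mouse has also described pairs of Spo11 cuts close together, which leave a fragment with a Spo11 cut at both ends and lengths that step by the turn of the DNA helix. For such a fragment the opposite strand should have 5′ ends at a fixed distance from both ends of the oligo, and this is what the pairing measures below read.

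Long oligos were a shelf on the falling side of the length distribution. Read counts fell steeply just below the class, with 25050 reads at 39 nt and 18343 at 40 nt, and then levelled, with 15772 at 41 nt, 14831 at 42 nt, 14518 at 43 nt and 14784 at 44 nt. The length of 44 nt was thus as common as 42 nt. Counts then fell with each added base, to 8047 reads at 49 nt, 1108 at 56 nt and 483 at 57 nt. The median long oligo was 45 nt and the 99th percentile 56 nt. Most were seen once: 80.9% of 105067 distinct intervals had a single read, with 1.35 reads per interval on average, against 2.19 reads per interval for 25 to 32 nt.

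The shelf ended at a different length in each run. The last length that still held at least 0.5 of the run's own count at 44 nt was 52 nt in run E8YXO9P, 53 nt in FE8RWPF, 46 nt in FFA0GWK and 49 nt in FIDXMPL, a measure chosen after the counts were seen. In run FE8RWPF counts were flat from 48 to 51 nt, with 3464, 3504, 3482 and 3447 reads. In run FFA0GWK they dropped over the same lengths, with 612, 236, 136 and 64 reads. Long oligos numbered 13.5 per 100 reads of 25 to 32 nt in E8YXO9P, 15.9 in FE8RWPF, 5.36 in FFA0GWK and 12.7 in FIDXMPL. Most of this 2.97-fold range lay at the upper lengths: reads of 49 to 55 nt numbered 4.54, 5.78, 0.145 and 1.76 per 100 in those runs in the same order, while reads of 41 to 45 nt numbered 5.96, 6.62, 4.22 and 7.54. Per the labels, PCR products of 100 to 140 bp were taken from a gel. Whether the cut-off in each run comes from that step was not tested.

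The longest listed reads were also the least well matched. The mapping score reached the value of a full-length match in 45.2% of 140793 reads of 41 to 56 nt and in 24.3% of 915 reads of 57 to 61 nt. It did so in 0 of 74 reads of 62 to 76 nt, which allows a share of up to 4.05%. Lengths above 61 nt therefore rest on 74 reads of which none scored as a full match, and nothing below depends on them.

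A repeat of 10 nt was not the leading pattern in the counts of each length. After removal of a running mean over 11 lengths, the period that took most of the variance of log2 counts from 41 to 56 nt was 8.6 nt (37.8% of variance), against 25% for 10 nt. In runs E8YXO9P, FE8RWPF and FFA0GWK alone the best period was 15 nt, the upper limit of the search, so no period within the search was set apart there. In FIDXMPL alone it was 13.8 nt (87.4% of variance), against 57.2% for 10 nt. The visible features were a shoulder at 36 and 37 nt, whose counts were 1.27 and 1.31 times the geometric mean of the lengths 5 nt shorter and 5 nt longer, a dip at 41 nt with 0.602 times, and the return to 1.04 times at 44 nt and 1.17 times at 45 nt.

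Most long oligos began where ordinary oligos began. In total 70.4% of long oligos shared their exact 5′ position and strand with an oligo of 25 to 32 nt, against 21.4% on average at positions 6 to 25 further along. Opposite-strand 5′ ends were densest 2 positions downstream of the long oligos' 5′ ends, with 12.4 partner reads per oligo, 5.68 times the median over all offsets up to 50 on either side. For oligos of 25 to 32 nt the same offset had 14.1 partner reads per oligo, 7.40 times the median. The excess of long oligos was 5.09 to 5.95 times in the runs, against 6.06 to 7.99 times for 25 to 32 nt, and it was below that of 25 to 32 nt in 14 of 16 chromosomes and 4 of 4 runs. With each interval and each partner position counted once, the values were 2.04 and 2.07 times, so the gap rested on heavily read positions.

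The 3′ ends differed between the classes. Opposite-strand 5′ ends lay 3 positions beyond the 3′ end of long oligos 1.99 times as often as at 6 to 25 positions beyond it, against 1.15 times for oligos of 25 to 32 nt. In partner reads this was 3.44 per long oligo and 1.91 per oligo of 25 to 32 nt. Set over the median of all offsets up to 50 on either side, the values were 1.81 and 0.982 times. The offset of 3 was picked after the profile was seen. It was not the highest point, since the position of the 3′ end itself had more partner reads, as given below. The offset of 3 equals the near-end spacing of 2 counted from the next base, so it is where the partner of a second cut would start. The same-strand position directly after the 3′ end, where the next oligo would begin, was also a 5′ end 1.99 times as often for long oligos, against 1.48 times for 25 to 32 nt. Neither offset stood out as much for 33 to 40 nt (1.25 and 1.45 times) or 12 to 24 nt (1.19 and 1.37 times).

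Both far-end signals recurred across runs and chromosomes. At the opposite strand, long oligos had 1.97 times in run E8YXO9P, 1.93 in FE8RWPF, 2.11 in FFA0GWK and 1.87 in FIDXMPL, against 1.11 to 1.22 times for 25 to 32 nt. Over chromosomes the value was 1.94 ± 0.470 times for long oligos and 1.15 ± 0.178 times for 25 to 32 nt (SD, n = 16 chromosomes, which are not replicates). It was higher for long oligos in 16 of 16 chromosomes, from 1.29 times on XII to 3.34 times on VII. The same-strand signal was higher for long oligos in 15 of 16. Counting every interval and partner position once lowered the values to 1.22 times for long oligos and 1.13 times for 25 to 32 nt, so most of the size came from positions with many reads. Without chromosome VII the pooled opposite-strand value was 1.84 times, against 1.15 times for 25 to 32 nt.

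Not every far-end partner followed this spacing, and the most partner reads lay elsewhere. Long oligos had 3.74 partner reads per oligo exactly at the 3′ end, against 3.44 at 3 positions beyond it. An opposite-strand 5′ end exactly at the 3′ end of the oligo was 2.17 times as frequent as at 6 to 25 positions beyond for long oligos, and 2.81 times for 25 to 32 nt. This coincidence was weaker in long oligos on 16 of 16 chromosomes and in 4 of 4 runs. With each interval and position counted once the order turned, at 1.61 times for long oligos and 1.59 times for 25 to 32 nt. With all reads it was strongest in run FIDXMPL for both classes, at 3.10 and 4.05 times.

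Read one length at a time, the far-end signal rose and fell with the length of the oligo. Opposite-strand ends 3 positions beyond were 1.44 times as frequent as background at 33 nt and 1.49 at 34 nt, then 0.955 at 37 nt and 0.918 at 39 nt. Within the long class they were 1.69 times at 41 nt, 1.89 at 42 nt, 2.53 at 43 nt, 2.35 at 44 nt, 2.25 at 45 nt, 2.24 at 46 nt and 1.70 at 47 nt, then 1.24 at 49 nt and 1.09 at 50 nt, and again 2.12 at 53 nt, 2.20 at 54 nt and 2.20 at 55 nt. High values thus stood at 33 to 34 nt, over a broad stretch from 42 to 46 nt and at 53 to 55 nt, with lower ones between them. The length of 48 nt broke this order with 2.85 times. With each interval and position counted once, the values were 1.29 times at 42 nt, 1.32 at 44 nt, 1.24 at 46 nt, 1.12 at 48 nt and 1.09 at 50 nt, and the last rise was slight, with 1.14 at 52 nt, 1.14 at 53 nt, 1.21 at 54 nt and 1.17 at 55 nt. Same-strand starts directly after the oligo followed this course in part, with 1.68 times at 34 nt, 1.14 at 36 nt and 2.69 at 44 nt. They had 1.24 at 50 nt and 2.68 at 53 nt, but also 2.16 at 27 nt, 2.14 at 48 nt and 1.61 at 54 nt. With each interval and position counted once, they had 1.33 at 44 nt, 1.14 at 50 nt, 1.14 at 53 nt and 1.21 at 55 nt.

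Neighbouring lengths were also grouped into bands, to put more reads behind each value. The bands were chosen after the single lengths were seen, and they leave out the high lengths of 42, 46 and 48 nt. Their order, in the pool and over chromosomes, thus follows in part from that choice and is no separate support for the course. The opposite-strand signal was 1.47 times in 174308 reads of 33 to 34 nt, 1.05 times in 177068 reads of 36 to 39 nt, 2.38 times in 42490 reads of 43 to 45 nt, 1.22 times in 21251 reads of 49 to 51 nt and 2.16 times in 9635 reads of 53 to 55 nt. For 43 to 45 nt it was 2.27, 2.70, 2.34 and 2.04 times in runs E8YXO9P, FE8RWPF, FFA0GWK and FIDXMPL, and it exceeded that of 36 to 39 nt on 16 of 16 chromosomes and that of 49 to 51 nt on 15 of 16. The band of 53 to 55 nt is less secure. It exceeded 49 to 51 nt on 9 of 16 chromosomes, it stood at 7.97 times on chromosome VII, and without that chromosome it was 1.5 times. It could be read in 2 runs only, with 3.09 times in E8YXO9P and 2.00 times in FE8RWPF. With each interval and position counted once, the 5 bands had 1.17, 1.12, 1.30, 1.10 and 1.17 times. The near-end signal showed no such course, with 5.10 to 5.69 times in all 5 bands.

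A cosine fitted to these values by length gave a less exact repeat. Over 25 to 56 nt the best period of the opposite-strand signal was 10.1 nt, with 30.9% of the variance of its log2 values about a quadratic trend. Over 30 to 56 nt it was 11.6 nt (50.5%), and over 36 to 56 nt 10.7 nt (51.9%). With each interval and position counted once these became 10, 11.8 and 12 nt. The same-strand signal gave 9.3, 11.2 and 10.1 nt over those ranges and, counted once, 15, 12.5 and 12.1 nt, where 15 nt is the limit of the search. The period was therefore not fixed by these fits.

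Matched long oligos on both strands were rare, and more frequent at a shift of 3 than at most other shifts. An opposite-strand long oligo with both ends shifted downstream by 3 existed for 1.95% of long oligos. The median at the other shifts of up to 15 on either side, with 0, 2 and 4 also left out, was 0.762%, which makes 2.55 times. Over all these shifts the median was 0.766%, which makes 2.54 times. Among oligos of 25 to 32 nt the figures were 4.87% and 4.79%, or 1.02 times. Identical intervals on the 2 strands were found for 3.07% of long oligos (4.03 times), more than at the shift of 3, and for 15.1% of oligos of 25 to 32 nt (3.14 times). The origin of either kind of match was not tested. Counting each interval once gave 2.20 times for the shift of 3 in long oligos and 1.03 times in 25 to 32 nt. Percentages differ between the classes with their number of reads, so only the folds are set side by side. At single-read level, 13.9% of long oligos had both a far-end opposite partner and a same-strand start next to them, against 9.87% at the offsets of 6 to 25. For 25 to 32 nt these shares were 12.4% and 9.85%.

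Long oligos were almost evenly spread over strands and chromosomes. They numbered 11.6 per 100 reads of 25 to 32 nt on the top strand and 11.8 on the bottom strand. Over 16 chromosomes the ratio was 11.7 ± 0.485 (SD), from 10.7 on XII to 12.6 on VII. XII and VII also had the lowest and highest far-end signal, but the other chromosomes did not keep this order. Chromosome X had a signal of 2.40 times with a ratio of 11.4, and XIII 1.71 times with 12.4.

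Whether long oligos were more frequent in hotspots depended on the reads they were set against. Hotspots, called from the 5′ ends of all reads, numbered 3626 and held 89.8% of long oligos and 90.1% of oligos of 25 to 32 nt. Inside them long oligos numbered 11.7 per 100 reads of 25 to 32 nt, and outside 12 (11.8 to 12.2). Runs did not share one direction. Inside and outside, the ratios were 13.5 and 13.7 in E8YXO9P, 16.1 and 14.8 in FE8RWPF, 5.39 and 5.10 in FFA0GWK, and 12.4 and 15.5 in FIDXMPL. The ratio was thus higher inside in 2 runs and higher outside in the other two. As a percentage of all reads, long oligos made up 7.09% inside (7.05 to 7.12%) and 6.34% outside (6.24 to 6.44%). This share was higher inside in E8YXO9P, FE8RWPF and FFA0GWK and lower inside in FIDXMPL.

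Taken over all hotspots, the widest held slightly more long oligos than the narrowest. When hotspots were split by width into 10 equal groups, the 363 narrowest (25 to 98 bp) had 10.0 long oligos per 100 reads of 25 to 32 nt (9.37 to 10.7) and the 363 widest (527 to 2040 bp) had 12.1 (12 to 12.3). The ratio of widest to narrowest was 1.21 (1.14 to 1.30), and 1.11 to 1.43 in the runs. The groups between did not rise steadily: 183 to 211 bp had 10.5, below the 11.5 at 127 to 156 bp. Width also went with strength. In 10 groups by reads of 25 to 32 nt, the median width was 76 bp in the weakest and 599 bp in the strongest. Within classes of like strength the direction was not the same throughout, as given below.

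Hotspot strength gave no fixed direction. Ranked by their own reads of 25 to 32 nt, the strongest group of 10 (722 to 5879 such reads) had 12 long oligos per 100. The weakest (0 to 36 reads) had 13.6. The ratio of strongest to weakest was 0.884 (0.833 to 0.938), and 0.795 to 0.992 in the runs. The 8 groups between had 11.2 to 11.6. This ranking uses the denominator of the ratio, which raises the ratio in the weakest group by construction. Ranked by reads of 33 to 40 nt instead, an alternative chosen after the data were seen, the strongest had 12.3 and the weakest 9.47. The ratio was 1.29 (1.22 to 1.37), and 1.22 to 1.37 in the runs. The weakest group of this ranking held 1231 long oligos and 12996 reads of 25 to 32 nt, against 1265 and 9335 in the first ranking. Whether ranking by this neighbouring length class also shifts the ratio was not tested. Within 3 strength classes by reads of 33 to 40 nt, the widest and narrowest hotspots had 10.8 and 9.78 (weak), 11.5 and 11.7 (middle) and 12.1 and 11.6 (strong) long oligos per 100.

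The type of gap around the hotspot made little difference. Hotspots between convergent genes had 11 long oligos per 100 (10.6 to 11.5, 140 hotspots), those between divergent genes 11.7 (11.6 to 11.8, 1389) and those between tandem genes 11.7 (11.6 to 11.8, 1880).

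Within hotspots, long oligos pointed inwards more often. With the centre taken as the mean 5′ position of 25 to 32 nt reads, 52.0% of long oligos ran from their 5′ end towards the centre (51.7 to 52.3%), against 47.0% of 25 to 32 nt (46.9 to 47.1%). In the runs the share was 51.3 to 53.7%, against 46.1 to 47.9%, and it was higher for long oligos on 16 of 16 chromosomes (52.0 ± 1.51% and 47.1 ± 1.39%, SD). Oligos of 33 to 40 nt lay between with 49%, and those of 12 to 24 nt had 46.2%. Seen along the oligo, the median 5′ end of long oligos lay at −3.93 bp, short of the centre, and that of 25 to 32 nt at 5.38 bp, past it. The midpoints of both classes lay at like distances past the centre, 18.7 and 19.2 bp. The centre is set by 25 to 32 nt reads, so these shares are descriptions relative to that class.

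Long oligos also stayed inside the hotspot more than their length alone gives. Both ends lay within the same hotspot for 96.5% of long oligos (96.4 to 96.6%). Giving the 5′ ends of the 25 to 32 nt reads the lengths of the long class put both ends inside for 95.4%. At their own lengths 98.0% of the 25 to 32 nt reads did so.

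Single hotspots varied more than the groups. Among 437 hotspots of at least 1000 reads the ratio had a median of 11.5 per 100 and ran from 3.83 to 31.4, with 7.98 at the 10th and 15.9 at the 90th percentile. The 95% interval left out the pooled ratio of 11.7 in 219 hotspots (50.1%), 107 above and 112 below. The ratio was above the run's own in 4 of 4 runs for 83 hotspots and below it in 4 of 4 for 85. It was at least 2 times the pooled ratio in 5 hotspots (1.14%) and at most 0.5 times in 5 (1.14%), 10 in all (2.29%). The commonest single interval supplied a median of 5.19% of a hotspot's long oligos (1.67 to 33.2%).

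The hotspot richest in long oligos lay on chromosome II (350740 to 351078) between MRX18 and MNC1, with 169 long oligos and 539 of 25 to 32 nt. Its ratio was 31.4 per 100 (26.4 to 37.3), 2.69 times the pooled ratio. By run it had 45.1 in E8YXO9P, 35.9 in FE8RWPF, 15 in FFA0GWK and 34.4 in FIDXMPL, against the runs' own 13.5, 16.1, 5.39 and 12.4. Its far-end opposite-strand signal was 3.02 times. The 6 highest and 6 lowest ratios were taken only from hotspots on the same side in all 4 runs. That the runs share a direction in these hotspots thus follows from the choice.

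Next came the gap beside SEC24, which encodes a cargo-binding subunit of the COPII vesicle coat (IX, 160220 to 160884), with 502 long oligos and a ratio of 30.1. One interval of 42 nt held 120 of these, 23.9%. The hotspot beside FSH2 (XIII, 715452 to 715717) had 309 and a ratio of 27.6, with 18.1% in 1 interval. The hotspot beside LEU2, which encodes an enzyme of leucine synthesis (III, 90743 to 91240), had 188 and a ratio of 26.5, and its far-end signal was 6.78 times. The strain also carries LEU2 sequence at his4X and nuc1Δ, and whether reads listed here come from those insertions was not tested.

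EMP24, which encodes a p24 protein of COPII vesicles, flanked 284 long oligos (VII, 123302 to 123628; ratio 26.3), with a far-end signal of 0.377 times. PTA1, which encodes a subunit of the mRNA cleavage and polyadenylation factor, flanked 208 (I, 61041 to 61325; ratio 22.5), with 0.260 times. The far-end signal thus ranged from 0.260 to 6.78 times among these 6 hotspots. With each interval counted once, the ratios of the 5 hotspots past 2-fold fell to 1.52 to 2.09 times the pooled one. On that count the median of the 437 hotspots was itself 1.16 times the pooled ratio.

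The poorest hotspot lay on chromosome VIII (238786 to 239039) between PCL5, which encodes a cyclin of the Pho85 kinase, and ERG7, which encodes the lanosterol synthase of sterol synthesis, with 29 long oligos and 757 of 25 to 32 nt. Its ratio was 3.83 per 100 (2.65 to 5.54). In the runs it was 5.23, 5.65, 1.36 and 3.86, each below the run's own, as the choice of named hotspots required. The next were beside SFA1, which encodes an alcohol and formaldehyde dehydrogenase (IV, 158768 to 159029; ratio 4.36), MRS3, which encodes a mitochondrial iron carrier (X, 159834 to 160465; 4.55), and SRP54, which encodes a subunit of the signal recognition particle (XVI, 713022 to 713277; 4.69). ROX3, which encodes a Mediator subunit, and RPL32 flanked a ratio of 5.35 (II, 45010 to 45480), and an unnamed hotspot on XI (523565 to 523841) had 5.97. The far-end signal of these 6, from few long oligos each, ranged from 0.501 times at PCL5 to 5.80 times on XI, with 3.17 at SFA1, 3.98 at MRS3, 3.36 at SRP54 and 0.878 at ROX3, so it overlapped that of the hotspots rich in long oligos. With each interval counted once, the 5 hotspots at most 0.5 times the pooled ratio were 0.655 to 0.889 times it, so none stayed past that fold. The median of the 437 hotspots on that count was 1.16 times, so these 5 lay further below the typical hotspot than below the pooled ratio.

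The 5 hotspots with most reads were not alike. The strongest, between FRS2 and GAT1 on VI, had 918 long oligos and a ratio of 15.6 (14.6 to 16.7). SND1 and CCT6 flanked 783 with 16.2 (15 to 17.4), YMR265C and RSN1 683 with 16.1, and SRB2 and NCP1 669 with 16.7. In all of these the ratio exceeded the run's own in 4 of 4 runs. The hotspot between ERG1 and ATF2 had 473 long oligos and a ratio of 9.33 (8.50 to 10.3), and it exceeded the run's own ratio in 1 run. The far-end signal there, on chromosome VII, was 15.9 times, against 1.26 to 3.72 times in the other four.

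Among hotspots long studied for recombination, the one between DEP1 and CYS3 had a ratio of 15.2 (13.5 to 17.1) with 314 long oligos. The one between BUD23 and ARE1 had 10.3 (9.13 to 11.6) with 305, whereas its neighbour between IMG1 and BUD23 had 20.8 (17.9 to 24.1) with 206. The hotspot between ARG4 and DED81 had 7.84 (6.35 to 9.68) with 93 and was below the run's own ratio in all 4 runs. LSB3 and HIS2 flanked 12.4 (10.3 to 14.8) with 133. Counts were too small to place RRP7 and HIS4, with 15.5 (10.1 to 23.7) from 24 long oligos, and RSC6 and THR4, with 9.36 (6.37 to 13.8) from 28, on either side of the pooled ratio.

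The 10 commonest long intervals held 629 reads, 0.444% of the class, spanned 41 to 47 nt, and 9 lay on the bottom strand. The first, on the top strand of chromosome VI from 74785 to 74825 between RIM15, which encodes a kinase of quiescence and meiotic entry, and HAC1, which encodes the transcription factor of the unfolded protein response, had 122 reads: 26 in E8YXO9P, 46 in FE8RWPF, 11 in FFA0GWK and 39 in FIDXMPL. At its 5′ end 138 of 231 oligos were long, against 33 of 25 to 32 nt. In 8 of the 10, the shared 5′ end had more long oligos than oligos of 25 to 32 nt. This follows in part from choosing the commonest long intervals. The intervals beside SEC24 share a 5′ end, as do those between PIN4 and SEC17, so these ends enter that count more than once. The next most common, both beside SEC24 (IX, 160552 to 160593 and 160550 to 160593), had 120 and 65 reads and a shared 5′ end with 238 long oligos and 30 of 25 to 32 nt. In 9 of the 10 there was no opposite-strand 5′ end 3 positions beyond the 3′ end, and in 10 of 10 no opposite-strand read was shifted by 3 at both ends. The exception lay beside ERG1 (VII, 848715 to 848758), with 38 reads and 4 such ends, near the mean of 4.20 at the offsets of 6 to 25. Absence of such partners is also the common state in the class. There 26.4% of long oligos had a far-end partner, against 21.6% at the offsets of 6 to 25, and 1.95% an opposite-strand read of the class shifted by 3. In 4 of the 10 intervals the mean at the offsets of 6 to 25 was itself only 0.15 to 0.8 ends per position.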

How the data were processed

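The deposited list holds uniquely mapped reads of the 4 datasets together, 1 line each with positions, run-based name, score and strand. Per the file headers the map is of S288C; the sources used here name neither the aligner nor the build. The score is the authors' mapping score per read, used as no filter. It settles how lengths are counted: with both end positions counted, 53.0% of scores equal that of a full match in a search space of 24.0 Mb, both strands of 12 Mb, whereas 1 base fewer gives 6.00 Mb. A second deposited map of hits per position has no lengths and was not used here. Depth was 395612 to 587674 reads per run, taken from the first 7 characters of read names. Hotspots came from 5′ ends smoothed with a Hann window of 201 bp, at 2.3 times the mean of 12 Mb, merged over gaps of 200 bp, with at least 25 bp and 10 RPM. Signals are partner reads at 1 offset over the mean at offsets 6 to 25 or the median over 50 offsets on either side. Hotspots named are the 6 highest and 6 lowest ratios on one side in all 4 runs, the 5 with most reads, 10 studied genes and 10 commonest intervals. Gene neighbours came from the R64 RefSeq table, used for names and orientation, except on XI, where the register broke. Values were computed in Python 3.11.15 with numpy 2.4.6 and pandas 2.3.3, and the scripts were tested on simulated data. Members and lists were chosen with earlier results of these data known. Reads carry no molecular identifiers, so intervals (95%, Wilson for shares and log-normal from the 2 counts for ratios) and floors (3 counts) cover counting error only.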

Additional observations from a re-analysis of the deposited data

How the results depend on the processing

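No paired analysis was possible because the read list pools the datasets and no test was run. A value is said to move when it leaves its counting interval, or changes by more than 1 SD over chromosomes. Counts of hotspots past 2-fold are instead said to move when they change by more than a fixed fold. Of the alternatives, those that rank by 33 to 40 nt, use only full-score reads or 41 to 45 nt, or leave out the 100 strongest hotspots were added after the data were seen.
Of 141 alternative values, 86 did not move and 55 did.

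With each start, end and strand counted once, the share of long oligos was 9.71%, near-end pairing 3.30 times and far-end pairing 1.31 times (over the median of offsets). The ratio of strongest to weakest hotspots was then 1.49, of widest to narrowest 1.76, and the share pointing inwards 51.4%. On that count 0 hotspots were past 2-fold, but of 112 that still held 1000, against 10 of 437; among the 437 themselves, 2 were at least 2 times the pooled ratio with each interval counted once. Counting at most 10 reads per position gave far-end pairing of 1.28 times. In runs E8YXO9P, FE8RWPF, FFA0GWK and FIDXMPL alone, with hotspots ranked anew, the share was 8.10, 9.27, 3.26 and 7.74%, the best count period 15, 15, 15 and 13.8 nt, and the strength ratio 0.526, 0.609, 0.739 and 0.516. Each of these rankings again uses the denominator of the ratio, from fewer reads. With the hotspots of the pool and their ranking kept, the strength ratio in those runs was 0.907, 0.905, 0.992 and 0.795. Run E8YXO9P alone also gave 3.61 times for matched intervals, a width ratio of 1.11 (0.970 to 1.27) and 51.4% pointing inwards. FFA0GWK alone gave a width ratio of 1.36 (1.13 to 1.65) and 53.6%, and FIDXMPL alone a width ratio of 1.06 (0.934 to 1.20). Hotspots past 2-fold numbered 0 of 18, 0 of 56, 1 of 45 and 0 of 25 in the single runs, too few hotspots to set against 10 of 437. With 1 run left out, the share ranged over 6.07 to 8.45%, the period over 8.5 to 15 nt, the strength ratio over 0.818 to 0.905 and the spread between runs over 1.25 to 2.97-fold, the lowest without FFA0GWK.

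The strength ratio was 0.954 against reads of 12 to 40 nt, 1.21 with hotspots from 25 to 32 nt reads and 1.29 when ranked by 33 to 40 nt, so its direction is not settled; the cause was not tested. Lengths counted 1 shorter gave a share of 6.22%. A lower bound of 46 nt gave 3.39%, 51.5% pointing inwards and 16 of 437 hotspots past 2-fold. Only 41 to 45 nt gave 52.5%, 22 of 437 hotspots and a spread of 1.79-fold between runs. Full-score reads gave 5.95%, a width ratio of 1.33, 52.4% and 6 of 190 hotspots. A quadratic trend gave a period of 15 nt, and a minimum of 300 reads gave 81 of 1524 hotspots past 2-fold. Far-end pairing of long oligos stayed above 1 under every alternative tried, from 1.28 to 2.25 times. Depth limits lengths above 56 nt and hotspots with few long oligos.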
